A study of Rattus norvegicus with 36 samples.

Results

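The Z-disc and sarcomere scaffold genes were a list of 10 names, chosen by name with earlier results of these data known, and 8 of them matched the 24275 genes of the deposited tables. They were *Csrp3*, *Actn2*, *Ldb3*, *Myoz1*, *Myoz2*, *Neb*, *Xirp1* and *Myom1*, while *Ttn* and *Tcap* were not analysed here. *Csrp3* had stood among the genes with the largest falls after miR-125b in hypoxia, so values against the control mimic in hypoxia are a description, and the calls counted in that contrast support nothing. RNA was measured in H9C2, a rat cardiac myoblast line grown as a continuous culture, with poly-A libraries that did not keep the strand. All cells received 25 nmol/L of a mimic, and there was no group without transfection. The mimic control (MC), miR-125b and its 4 isomiRs, named Plus A for an added base and Trim A, AG and AGU for the bases removed, were each followed by Normoxia or Hypoxia, with 3 libraries per group. According to the methods the hypoxic cells were also in serum-free low-glucose medium and the normoxic cells in fresh medium, so oxygen and medium cannot be told apart. Counts of 33 of the 36 libraries and 11 of the 12 groups were used, and for Normoxia MC only a group mean given by the authors. Nothing in the labels says that the 3 libraries of a group came from separate cultures, so p-values measure the spread between these libraries, which may be technical.

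The sarcomere is the contractile unit of striated muscle, and the Z-disc is the plate at its border where thin actin filaments of neighbouring sarcomeres are anchored and cross-linked. Scaffold proteins hold this lattice together, tie it to signalling proteins and keep filament length constant, and the M-band does the same for the thick filaments in the middle of the sarcomere. In myoblasts most of these genes are low and rise as the cells leave the cell cycle and differentiate, and changes in several of them cause inherited cardiomyopathy or skeletal myopathy. A microRNA pairs with transcripts mainly through its seed, bases 2 to 8, and an isomiR is a variant of a microRNA that differs by bases at an end.

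The sequences below show what was varied between the groups. They are the mature rat miR-125b of RefSeq (GRCr8, chr11:29732588-29732609, plus strand) and the isomiRs derived from it by the added or removed 3′ bases that the labels name, with the seed in capitals.
miR-125b: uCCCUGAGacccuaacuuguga
Plus A: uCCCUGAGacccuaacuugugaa
Trim A: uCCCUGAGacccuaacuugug
Trim AG: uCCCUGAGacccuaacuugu
Trim AGU: uCCCUGAGacccuaacuug
All 5 share the seed and the bases after it up to position 19, and they are 22, 23, 21, 20 and 19 bases long in that order.

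Total counts per library were 28361216 to 42672584 (median 29923694), and the 3 Hypoxia Trim AG libraries were the deepest, at 39940087 to 42672584. Levels are given as CPM, the count scaled to the library total. Replicate 2 of Hypoxia Trim AGU stood apart, with 16981 genes with a count where the other libraries had 18342 to 19451. In normoxia, replicate 1 of Plus A and replicate 1 of miR-125b went against their groups for *Cav1*, with 269 CPM against 98.0 and 98.3 in the other Plus A libraries, and with 102 CPM against 282 and 263 in the other miR-125b libraries. These values were noticed in earlier work on the same data. Whether these 2 libraries were exchanged was not tested, the labels were kept, and the fits that use either library were repeated without it. As to the cell type, the cardiomyocyte markers *Myh6*, *Nppa*, *Nppb*, *Ryr2*, *Myl7* and *Nkx2-5* were each below 1 CPM in all libraries, and *Nppa* had no count in 12 of the 33. *Pln* (1.19 to 8.66 CPM) and *Tnni3* (0.855 to 3.43 CPM), on the same list, had counts in all libraries, and *Hcn4* reached 1.01 CPM. The skeletal myoblast genes *Myod1* (17.1 to 146 CPM), *Cdh15* (190 to 599 CPM) and *Myog* (10.4 to 359 CPM) were present in all libraries, while *Myf5* had no count in 30. The fibroblast gene *Col1a1* (5403 to 27702 CPM) and the smooth muscle gene *Acta2* (3921 to 11154 CPM) were abundant in all of them. Other markers on these lists were scarce, as *Fap* had no count in 30 libraries and *Pdgfra* at most 0.846 CPM, and *Des* had 0.855 to 4.98 CPM. In bulk RNA, fewer cells that express a gene and less of its RNA per cell cannot be told apart.

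Per length of transcript, in the FPKM values of the deposited tables, the members fell into an abundant and a scarce set. In Hypoxia MC the mean level was 6.78 FPKM for *Neb*, 5.47 FPKM for *Ldb3*, 4.66 FPKM for *Csrp3* and 4.31 FPKM for *Myom1*. *Xirp1* followed with 1.19 FPKM, *Actn2* with 0.657 FPKM, *Myoz2* with 0.547 FPKM and *Myoz1* with 0.278 FPKM. In Normoxia Trim AGU the order was different, with *Myom1* at 7.35 FPKM and *Ldb3* at 6.92 FPKM ahead of *Neb* at 4.01 FPKM and *Csrp3* at 0.719 FPKM. The level of *Csrp3* relative to the other members therefore depended on the group. *Myoz1* and *Myoz2* are paralogs, as are *Actn2* and *Actn3*, and reads shared between such copies were not examined.

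*Csrp3* encodes muscle LIM protein, a small Z-disc protein involved in stretch sensing, and lies on chromosome 1 (104147206 to 104166367, minus strand, in the coordinates of the tables, whose build is not given in the sources used here). It had 6.21, 6.18 and 6.73 CPM in the 3 Hypoxia MC libraries. With mimics in hypoxia it had 0.412, 0.161 and 0.161 CPM for miR-125b and 0.368, 0.236 and 0.226 CPM for Plus A. Trim A gave 0.0322, 0.253 and 0.145 CPM, Trim AG 0.121, 0.250 and 0.305 CPM and Trim AGU 0.657, 0.722 and 1.17 CPM. All 15 of these libraries lay below MC, and the 3 Trim AGU libraries lay above the other 12. In normoxia the values were 0.480, 0.731 and 0.209 CPM for miR-125b, 0.488, 0.447 and 0.565 CPM for Plus A and 1.16, 0.571 and 1.07 CPM for Trim A. Normoxia Trim AG had 1.74, 1.57 and 1.47 CPM, above every library outside Hypoxia MC, and Normoxia Trim AGU had 1.35, 0.759 and 0.595 CPM. By group mean, Hypoxia MC (6.37 ± 0.306 CPM, SD, n = 3) and Normoxia Trim AG (1.59 ± 0.134 CPM, SD, n = 3) each stood apart from the next group, and so did Hypoxia Trim AGU (0.851 ± 0.282 CPM) from Normoxia Plus A (0.500 ± 0.0596 CPM), while the other groups overlapped with their neighbours. Outside Hypoxia MC a library held 1 to 50 counts of *Csrp3*, so that differences among these groups rest on few counts.

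*Neb* and *Actn2* shared with *Csrp3* a highest level in Hypoxia MC that no other group with counts reached. Normoxia MC is not among these groups, and all normoxia libraries had miR-125b or an isomiR. The authors' means in Normoxia MC were 3897 for *Neb*, 22.3 for *Actn2* and 44.9 for *Csrp3*. In Hypoxia MC the counts were 4228 to 4888, 56 to 67 and 184 to 196 in that order, and the difference was not tested. *Neb* encodes nebulin, the giant protein that runs along the thin filament from the Z-disc, and lies on chromosome 3 (37658563 to 37854561, minus strand). It had 143, 142 and 168 CPM in Hypoxia MC, against 18.4 to 69.4 CPM in the 15 hypoxia libraries with mimics and 53.3 to 97.0 CPM in the 15 normoxia libraries. Hypoxia Plus A, with 69.4, 65.9 and 61.4 CPM, lay above the 45.1, 45.2 and 45.8 CPM of Hypoxia miR-125b and within the range of normoxia. *Actn2*, on chromosome 17 (66304501 to 66397653, minus strand), encodes the sarcomeric alpha-actinin that cross-links thin filaments in the Z-disc. Its levels were 2.08, 1.88 and 2.30 CPM in Hypoxia MC, 0.0501 to 0.419 CPM in the hypoxia libraries with mimics and 0.138 to 1.01 CPM in normoxia. Apart from Hypoxia MC, each group overlapped with the next in the order of *Actn2* means.

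*Xirp1*, *Myom1* and *Ldb3* had another pattern, in which Hypoxia MC was close to the normoxia libraries and all hypoxia libraries with mimics were lower. These normoxia libraries all had miR-125b or an isomiR. For Normoxia MC the authors' means were above the Hypoxia MC counts of all 3 genes, such as 577 against 216 to 248 for *Xirp1*, which was not tested. *Xirp1*, on chromosome 8 (128702133 to 128711221, minus strand), encodes Xin, an actin-binding repeat protein of muscle attachment sites. It had 8.20, 7.25 and 7.41 CPM in Hypoxia MC and 4.77 to 15.4 CPM in normoxia, but 0.0317 to 0.782 CPM in hypoxia with mimics. The groups in between did not overlap, as the lowest normoxia library had 4.77 CPM (137 counts) and the highest hypoxia library with a mimic 0.782 CPM (25 counts). In normoxia its level was 6.85, 4.77 and 6.53 CPM with miR-125b and 12.3, 15.4 and 13.9 CPM with Trim AGU.

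*Myom1*, on chromosome 9 (119353840 to 119468715, plus strand), encodes myomesin, which cross-links thick filaments in the M-band and thus lies outside the Z-disc. It had 20.5, 21.8 and 27.6 CPM in Hypoxia MC, 24.5 to 39.9 CPM in normoxia and 4.20 to 12.0 CPM in hypoxia with mimics. *Ldb3*, on chromosome 16 (10878334 to 10941501, minus strand), encodes a PDZ and LIM domain protein that binds alpha-actinin. It had 32.5, 32.4 and 39.3 CPM in Hypoxia MC, 32.0 to 44.6 CPM in normoxia and 8.41 to 22.3 CPM in hypoxia with mimics. For *Xirp1*, *Myom1* and *Ldb3* the 15 hypoxia libraries with mimics all lay below the 18 other libraries. The share of all genes that separate in this way was not counted, so nothing is read from it. The lowest hypoxia value of *Myom1* and of *Ldb3*, and of *Neb*, was that of Trim AGU replicate 2, which stood apart above. Without that library the lowest hypoxia values were 6.84 CPM for *Myom1*, 12.0 CPM for *Ldb3* and 25.1 CPM for *Neb*.

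*Myoz1* and *Myoz2* encode calsarcins, Z-disc proteins that bind alpha-actinin and the phosphatase calcineurin, and both were near the limit of these libraries. *Myoz2* (chromosome 2, 227180886 to 227207635, minus strand) had 0.760, 0.403 and 0.892 CPM in Hypoxia MC and 0.382 to 1.85 CPM in normoxia. In hypoxia it had 0, 0.194 and 0.0646 CPM with miR-125b and 0.291, 0.801 and 0.562 CPM with Trim AG, and the other 9 libraries with mimics had at most 0.222 CPM. Hypoxia Trim AG thus lay above the other hypoxia groups with mimics and overlapped with MC and normoxia. A count of 0 allows a level of up to 0.103 CPM (3 counts) in replicate 1 of Hypoxia miR-125b and up to 0.0941 CPM in replicate 2 of Hypoxia Trim AGU, a limit that covers counting error only. *Myoz1* (chromosome 15, 4077091 to 4084314, plus strand) had 0 to 26 counts per library, at most 0.753 CPM, and every group overlapped with the next in the order of means.

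**Figure D1:**
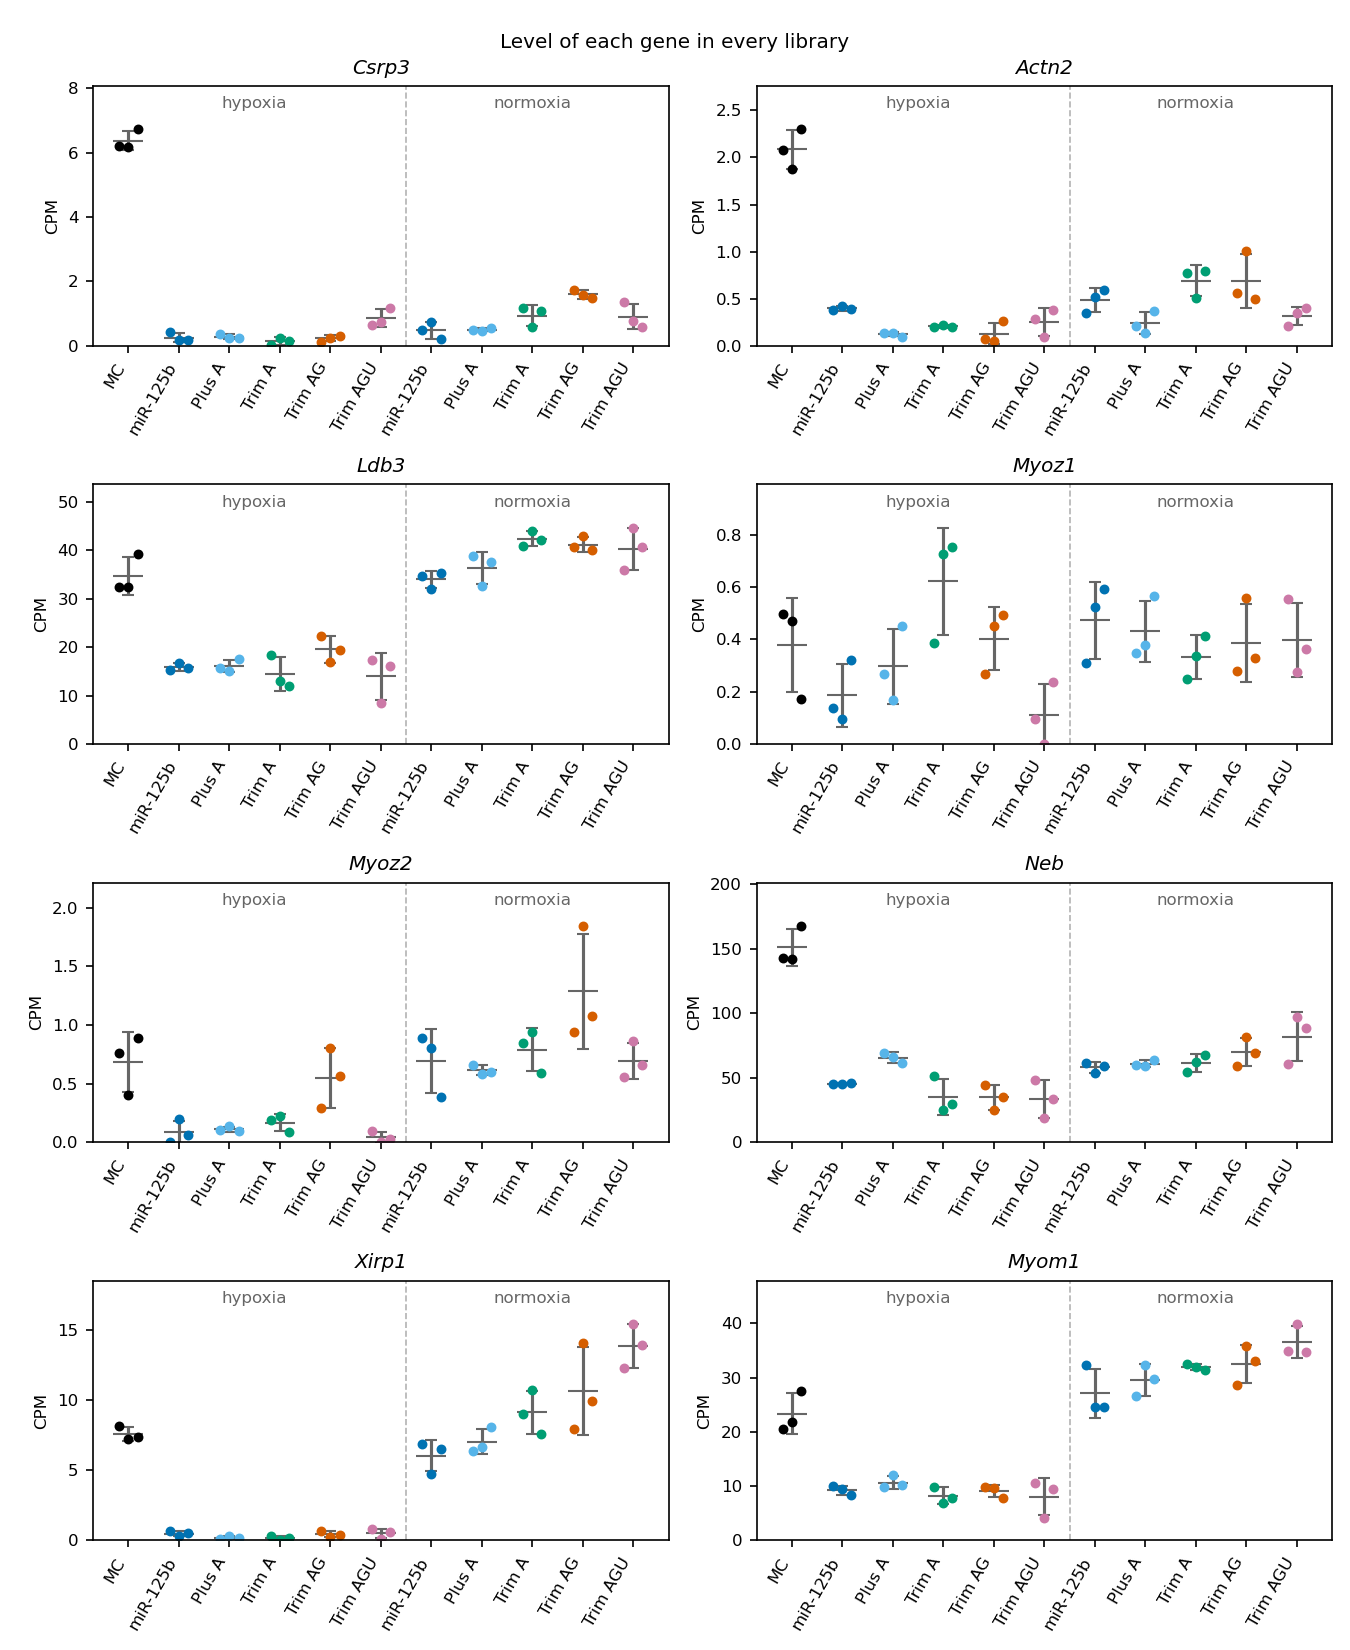
CPM of each member in every library (points), with the group mean and SD (bars, n = 3), for the 6 hypoxia groups and the 5 normoxia groups. *Csrp3*, *Actn2* and *Neb* were highest in Hypoxia MC. *Ldb3*, *Xirp1* and *Myom1* in Hypoxia MC were near the level of the normoxia libraries, which all had miR-125b or an isomiR, and low in the 15 hypoxia libraries with mimics.

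These patterns are set against each other in the plot of *Xirp1* and *Csrp3* by library. The 3 Hypoxia MC libraries were high for both genes, the 15 normoxia libraries were high for *Xirp1* with 0.209 to 1.74 CPM of *Csrp3*, and the 15 hypoxia libraries with mimics were low for both.

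**Figure D2:**
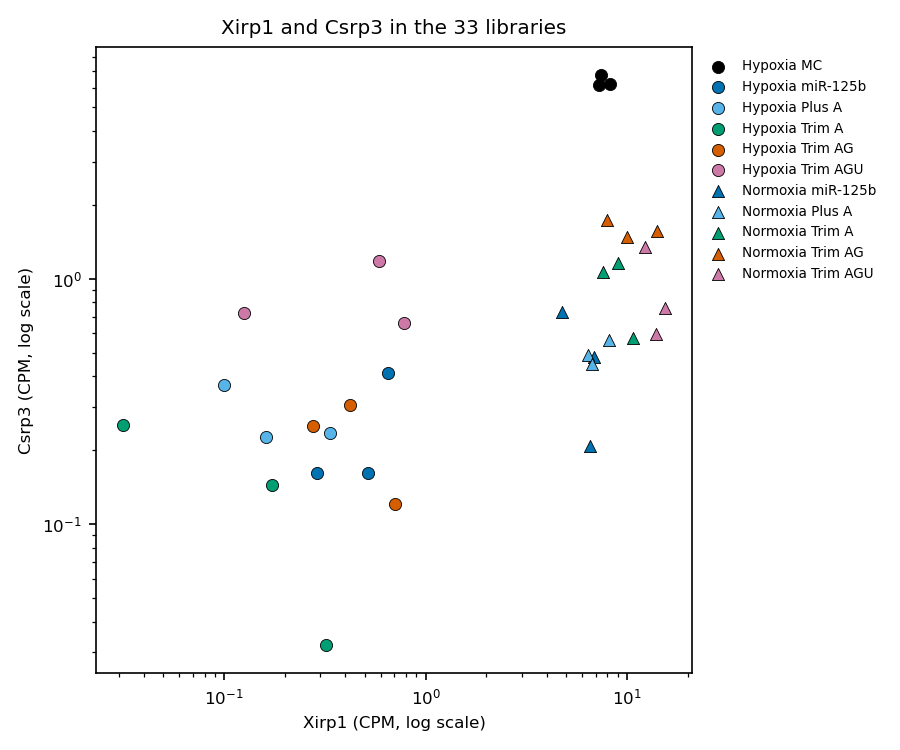
*Csrp3* against *Xirp1* in the 33 libraries, both in CPM on log axes, with circles for hypoxia and triangles for normoxia. The hypoxia libraries with mimics reached at most 0.782 CPM of *Xirp1*, and all other libraries had at least 4.77 CPM.

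How far the mimics lowered these genes in hypoxia was described with edgeR fits of each mimic against MC. All 5 comparisons shared the 3 MC libraries. Over the 5 fits, 38 of 40 pairs of member and mimic passed the filter on low counts, 34 met the call (adjusted p-value under 0.05, change of 1.5-fold or more), all lower than MC, and 4 did not. Of all genes tested 21.9% were called in either direction by miR-125b, 24.8% by Plus A, 28.1% by Trim A, 37.2% by Trim AG and 23.8% by Trim AGU. Those called lower made up 12.5%, 14.4%, 15.7%, 20.2% and 12.4% in that order, and as the members were chosen with this contrast known nothing is read from their count. Without replicate 3 of Hypoxia MC 31 pairs met the call, since *Myoz2*, *Myom1* and *Ldb3* with Trim AGU did not. The log2 fold change of *Csrp3* was -4.66 ± 0.28 (SE) under miR-125b, -4.48 ± 0.23 under Plus A, -5.38 ± 0.38 under Trim A, -4.73 ± 0.28 under Trim AG and -2.76 ± 0.27 under Trim AGU. *Xirp1* fell over a similar range, from -3.81 ± 0.49 with Trim AGU to -5.37 ± 0.41 with Trim A. For *Actn2* the log2 fold change was between -2.35 ± 0.24 with miR-125b and -4.03 ± 0.31 with Plus A. *Neb*, *Myom1* and *Ldb3* had smaller differences than *Csrp3* and *Xirp1* with each mimic, of -1.18 ± 0.07 with Plus A to -2.06 ± 0.29 with Trim AGU for *Neb*, -1.11 ± 0.12 to -1.46 ± 0.16 for *Myom1* and -0.77 ± 0.11 to -1.22 ± 0.16 for *Ldb3*. *Myoz2* had -2.87 ± 0.69 with miR-125b (-4.17 without replicate 2 of Hypoxia miR-125b and -2.34 without replicate 1), -3.81 ± 0.77 with Trim AGU (-5.02 to -3.33 without each library, lowest without replicate 1 of Hypoxia Trim AGU, and no longer called without replicate 1 or 3 of Hypoxia MC or replicate 3 of Hypoxia Trim AGU) and -0.25 ± 0.45 with Trim AG. *Myoz1*, tested with 3 mimics, had -0.33 ± 0.54 to 0.76 ± 0.47. Without replicate 2 of Hypoxia Trim AGU the differences with Trim AGU were -1.81 for *Neb*, -1.14 for *Myom1* and -0.97 for *Ldb3*.

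**Figure D3:**
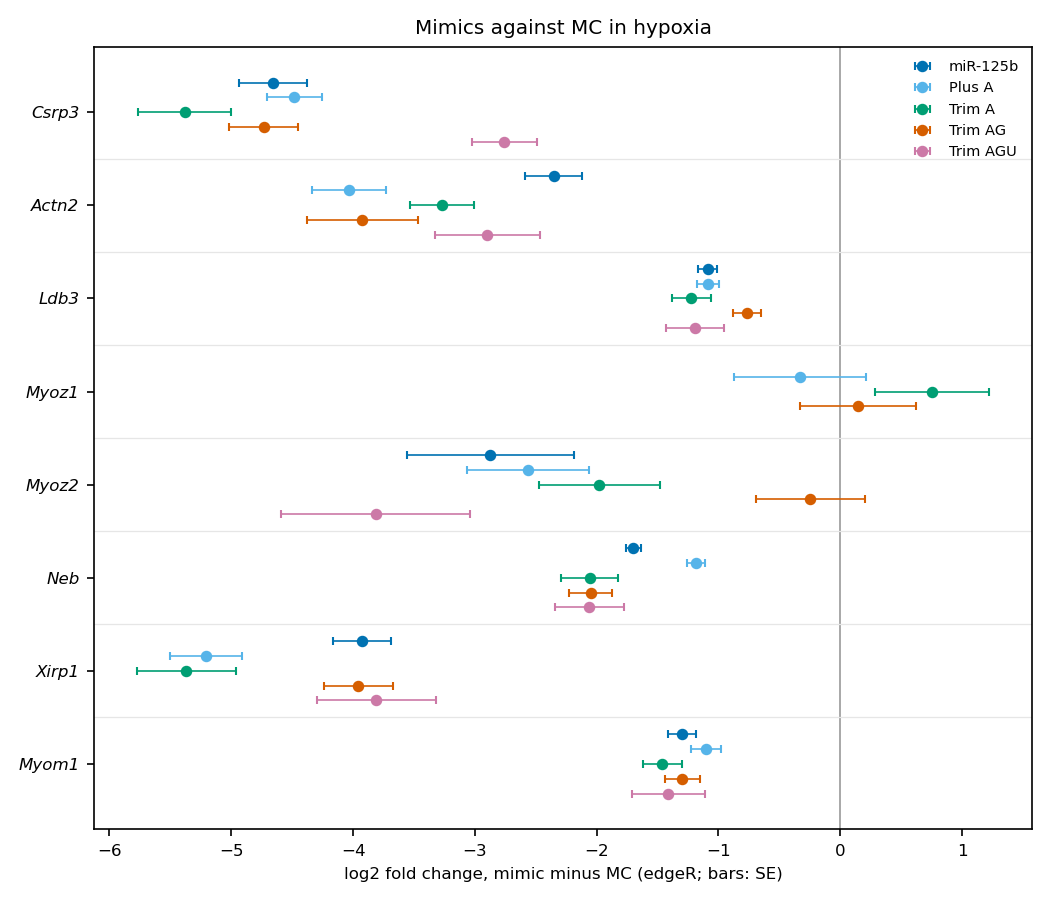
Log2 fold change of each member with each of the 5 mimics against MC in hypoxia (points, negative when lower than MC), with the SE of the edgeR fit (bars), for the 38 pairs tested. *Csrp3* and *Xirp1* had the differences furthest from 0 with 4 of the mimics, *Myoz2* and *Xirp1* (both -3.81) with Trim AGU, and *Myoz1* lay on both sides of 0.

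Sums of cell type markers were set beside these levels, and they did not share a direction. The summed level of 9 skeletal myoblast markers was 1129 to 1139 CPM in Hypoxia MC, 265 to 566 CPM in hypoxia with mimics and 568 to 810 CPM in normoxia, and that of 8 smooth muscle markers was 6572 to 6943 CPM, 11153 to 21210 CPM and 13406 to 18879 CPM. For 9 fibroblast markers the sums were 31537 to 32637 CPM, 9383 to 45237 CPM and 23839 to 41333 CPM, and for 9 cardiomyocyte markers 7.27 to 8.03 CPM, 4.67 to 7.22 CPM and 7.71 to 11.7 CPM. *Myog* is also on the list of myogenic genes and *Des* on that of other scaffold genes used below. The part of these markers in the results was not tested. *Myog*, the myogenic factor of differentiating myoblasts, had 342 to 359 CPM in Hypoxia MC, 10.4 to 64.7 CPM in hypoxia with mimics and 32.4 to 63.6 CPM in normoxia. It thus resembled *Csrp3* and *Neb* in its peak in Hypoxia MC.

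Whether the members differed between hypoxia and normoxia was asked under each mimic. *Xirp1*, *Myom1*, *Ldb3* and *Myoz2* were down-regulated in hypoxia under all 5 mimics. *Csrp3* and *Actn2* were down-regulated under Trim A and Trim AG, *Neb* under Trim A, Trim AG and Trim AGU, and no member was up-regulated. Of the members tested, 4 of 7 were called lower under miR-125b, 4 of 7 under Plus A, 7 of 8 under Trim A, 7 of 8 under Trim AG and 5 of 7 under Trim AGU. The share of all genes called lower was 11.5%, 12.8%, 14.5%, 17.8% and 13.4% in the same order, and the median log2 fold change of the members tested was -1.18 to -1.92 where that of all genes was 0.0037 to 0.020. These medians leave out *Myoz1* under miR-125b and Trim AGU and *Actn2* under Plus A, which did not pass the filter on low counts.

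Among the members the fall of *Xirp1* was the largest in each of the 5 fits, with log2 fold changes of -3.71 ± 0.28 (SE) under miR-125b, -5.23 ± 0.32 under Plus A, -5.75 ± 0.42 under Trim A, -4.50 ± 0.34 under Trim AG and -4.77 ± 0.48 under Trim AGU, and edgeR adjusted p-values of 6.7e-06, 1.6e-06, 1.5e-05, 1.0e-05 and 0.00067. *Myom1* fell by 1.58 (Plus A) to 2.16 (Trim AGU) on the log2 scale and *Ldb3* by 1.07 (Trim AG) to 1.63 (Trim A), with adjusted p-values of at most 0.0022 and 0.0044. *Myoz2* fell by 1.21 under Trim AG to 3.93 under Trim AGU, and its call under Trim AG (adjusted p = 0.032) was lost without replicate 2 of Normoxia Trim AG (0.15) and without replicate 1 (0.061) or replicate 3 (0.076) of Hypoxia Trim AG. Single libraries with few counts moved the value of *Myoz2*, which was -4.29 to -2.47 under miR-125b and -5.12 to -3.45 under Trim AGU without each library in turn, the former lowest without replicate 2 of Hypoxia miR-125b and the latter without replicate 1 of Hypoxia Trim AGU. The 4 genes were still called without replicate 1 of Normoxia miR-125b, with -3.61 for *Xirp1*, -1.49 for *Myom1*, -1.16 for *Ldb3* and -2.78 for *Myoz2* under miR-125b. They had -5.32, -1.67, -1.26 and -2.51 under Plus A without replicate 1 of Normoxia Plus A. Except under Trim AG, *Myoz2* passed the filter on low counts only through its normoxia libraries. In the fits with every library, *Xirp1* did so under all 5 mimics. Entry of both genes to these tests thus depended on the condition where they were higher, so their p-values there are a description.

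*Csrp3* had a log2 fold change of -2.74 ± 0.56 (SE) under Trim A and -2.79 ± 0.34 under Trim AG (edgeR adjusted p = 0.0040 and 0.00016). Under the other mimics it did not pass the test, with -1.03 (95% interval -2.34 to 0.28) under miR-125b, -0.96 (-1.84 to -0.08) under Plus A and -0.05 (-1.06 to 0.97) under Trim AGU. Without the doubted normoxia library *Csrp3* had -1.02 (-2.56 to 0.51) under miR-125b and an interval of -2.06 to 0.07 under Plus A. The Hypoxia miR-125b libraries in this comparison are those in which *Csrp3* had been noticed as low. *Actn2* had -1.80 ± 0.38 under Trim A and -2.38 ± 0.59 under Trim AG (adjusted p = 0.0048 and 0.0081), against -0.37 (-1.19 to 0.45) under miR-125b and -0.29 (-1.65 to 1.07) under Trim AGU. Under Trim A and Trim AG, *Csrp3* and *Actn2* passed the filter on low counts through their normoxia libraries, where they were higher. *Neb* fell by 0.88 under Trim A, 1.00 under Trim AG and 1.28 under Trim AGU (adjusted p = 0.012, 0.0017 and 0.019). Its call under Trim AGU was lost without replicate 2 (0.079) or replicate 3 (0.067) of Normoxia Trim AGU and without replicate 3 of Hypoxia Trim AGU (0.066), and without replicate 2 of Hypoxia Trim AGU the difference was -1.03. Under miR-125b *Neb* had -0.44 ± 0.06 (adjusted p = 0.00041), below the fold threshold, and under Plus A -0.00 (-0.15 to 0.15). With the doubted normoxia library left out *Neb* had -0.39 and -0.04, and *Actn2* had -0.57 under miR-125b. *Myoz1* was not called under the 3 mimics with which it was tested, with 0.83 ± 0.41 under Trim A. It entered the test and was called lower under miR-125b without replicate 1 of Normoxia miR-125b (-1.64, adjusted p = 0.039) and without replicate 3 of Hypoxia miR-125b (-2.06, adjusted p = 0.025). In both fits *Myoz1* passed the filter on low counts only through the normoxia libraries, where it was higher.

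**Figure D4:**
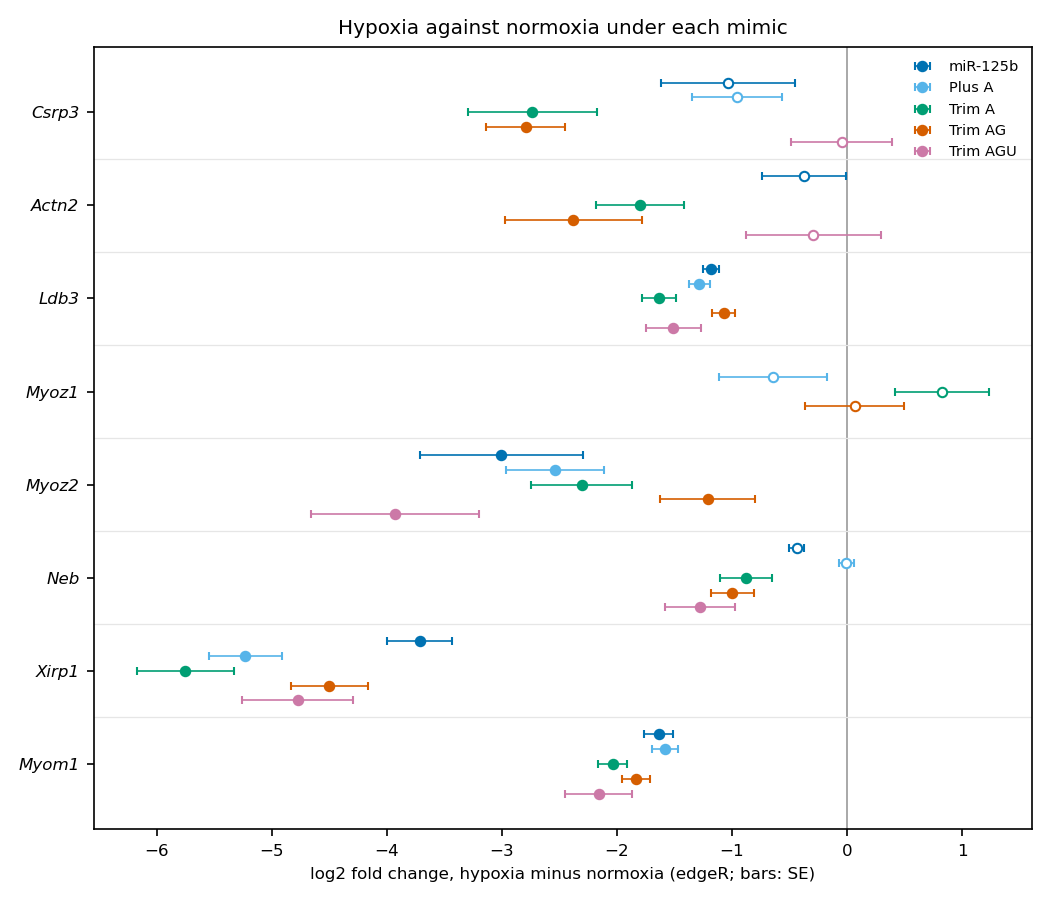
Log2 fold change of each member in hypoxia against normoxia under each of the 5 mimics (points, negative when lower in hypoxia), with the SE of the edgeR fit (bars). Filled points met the call and open points did not, and *Xirp1*, *Myom1*, *Ldb3* and *Myoz2* are filled under all 5 mimics.

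The isomiRs were then compared with miR-125b at the same dose. In hypoxia 2 of the 23 pairs of member and isomiR tested were called, and 9 pairs did not pass the filter on low counts, *Csrp3* among them for every isomiR other than Trim AGU. At an unadjusted p-value below 0.05 there were 9 pairs, and DESeq2 called 2, *Myoz2* with Trim AG and *Csrp3* with Trim AGU. With Trim AG *Myoz2* was up-regulated by 2.63 ± 0.77 (SE) on the log2 scale (edgeR adjusted p = 0.025). This call held in 2 of the 6 fits that left out a library. It was lost without replicate 1 of Hypoxia miR-125b, which had no count (2.09, adjusted p = 0.061), and without replicate 3 (2.46, adjusted p = 0.086), and without replicate 2 or 3 of Hypoxia Trim AG the gene did not pass the filter on low counts. Without replicate 2 of Hypoxia miR-125b the difference was 3.94. With Plus A *Actn2* was down-regulated by -1.68 ± 0.49 (adjusted p = 0.048), from 11, 13 and 12 counts to 4, 4 and 3, and without any of the 6 libraries in turn its adjusted p-value was 0.081 to 0.14. DESeq2 gave no adjusted p-value for it. *Myoz2* passed the filter on low counts only through the Trim AG libraries, and *Actn2* only through the miR-125b libraries. Entry to the test thus depended on the group where the gene was higher, so these p-values are a description. Of all genes 7.85% were called higher for Trim AG (19.3% in either direction) and 1.32% lower for Plus A (2.03% in either direction).

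No member was called with Trim A or with Trim AGU in hypoxia (2 and 1 at an unadjusted p-value below 0.05), where 0.873% (0.457% higher) and 3.75% of all genes were called. *Neb* had 0.51 ± 0.05 with Plus A (adjusted p = 0.00071), higher but below the fold threshold, and -0.36 (95% interval -0.88 to 0.16) with Trim A. *Csrp3* had 1.88 (0.69 to 3.07) with Trim AGU (adjusted p = 0.090), and it was called by DESeq2 (1.92, adjusted p = 0.033) and without replicate 2 of Hypoxia Trim AGU (1.94, adjusted p = 0.040). The Hypoxia miR-125b libraries it was set against are those in which *Csrp3* had been noticed as low. It also passed the filter on low counts through the Trim AGU libraries, so these values are a description. Without replicate 1 of Hypoxia Trim A, 3 further members were called with Trim A, which were *Neb* (-0.71, adjusted p = 2.8e-05), *Xirp1* (-2.15, adjusted p = 0.045) and *Myoz1* (1.99, adjusted p = 0.016). Without replicate 3 of Hypoxia Trim AG *Actn2* was called lower with Trim AG (-2.59, adjusted p = 0.018). In these fits *Xirp1* and *Actn2* passed the filter on low counts only through the miR-125b libraries, and *Myoz1* only through the Trim A libraries. Each was higher in the group that let it enter, so the p-values of *Xirp1*, *Actn2* and *Myoz1* are a description. For *Myom1* and *Ldb3* the differences from miR-125b in hypoxia were small with every isomiR, at most 0.31 on the log2 scale in size, and the widest 95% intervals were those of Trim AGU, from -0.83 to 0.58 and from -0.67 to 0.44.

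In normoxia 3 of the 32 pairs were called, all higher than miR-125b, 10 pairs had an unadjusted p-value below 0.05 and DESeq2 called 4. *Csrp3* was up-regulated with Trim AG by 1.70 ± 0.37 (SE) on the log2 scale (edgeR adjusted p = 0.0056), and it was still called without each library in turn, with 1.34 to 2.15. In the fit with every library *Csrp3* passed the filter on low counts only through the Trim AG libraries, where it was higher. Its p-value is therefore a description. *Xirp1* was up-regulated with Trim AGU by 1.19 ± 0.16 (adjusted p = 0.0011) and with Trim AG by 0.77 ± 0.22 (adjusted p = 0.022). The call of *Xirp1* with Trim AG was lost without replicate 2 of Normoxia miR-125b (adjusted p = 0.069) and without replicate 2 of Normoxia Trim AG (0.079). Of all genes 7.58% were called higher for Trim AG and 6.22% for Trim AGU (13.9% and 11.4% in either direction). Without replicate 1 of Normoxia miR-125b the difference was 1.71 for *Csrp3* and, for *Xirp1*, 1.29 under Trim AGU and 0.88 under Trim AG.

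With Trim A in normoxia no member was called (3 at an unadjusted p-value below 0.05, with 0.414% of all genes called), and *Xirp1* had 0.60 (95% interval 0.20 to 1.00, adjusted p = 0.11). DESeq2 called it. With Plus A no member was called by edgeR or DESeq2 and none had an unadjusted p-value below 0.05, as none of all genes was called. The intervals of Plus A against miR-125b were narrow for *Ldb3* (-0.08 to 0.28), *Neb* (-0.08 to 0.24) and *Myom1* (-0.16 to 0.42) and wide for *Csrp3* (-0.93 to 1.10) and *Actn2* (-2.04 to 0.04). Again no member was called with Plus A without replicate 1 of Normoxia miR-125b, of Normoxia Plus A or of both. Leaving out both libraries, an alternative chosen after seeing the data, raised the genes called with Plus A from 0 of 14781 to 166 of 14856 (1.12%), against 1 without either of them alone. In that fit *Csrp3* had 0.13 (-1.22 to 1.49), *Actn2* -1.10 (-2.40 to 0.19), *Xirp1* 0.41 (-0.03 to 0.85), *Neb* 0.15 (-0.01 to 0.31) and *Ldb3* 0.09 (-0.11 to 0.29). *Myom1* had 0.36 (0.19 to 0.53, adjusted p = 0.028), below the fold threshold. Below the fold threshold, *Neb* and *Myom1* had 0.49 ± 0.15 and 0.42 ± 0.12 with Trim AGU (adjusted p = 0.044 and 0.032), and *Neb* was called without replicate 1 of Normoxia Trim AGU (0.67, adjusted p = 0.0024). They had 0.54 and 0.57 (adjusted p = 0.083 and 0.0078) without replicate 1 of Normoxia miR-125b, and *Xirp1* with Trim A then had 0.70 (adjusted p = 0.099).

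**Figure D5:**
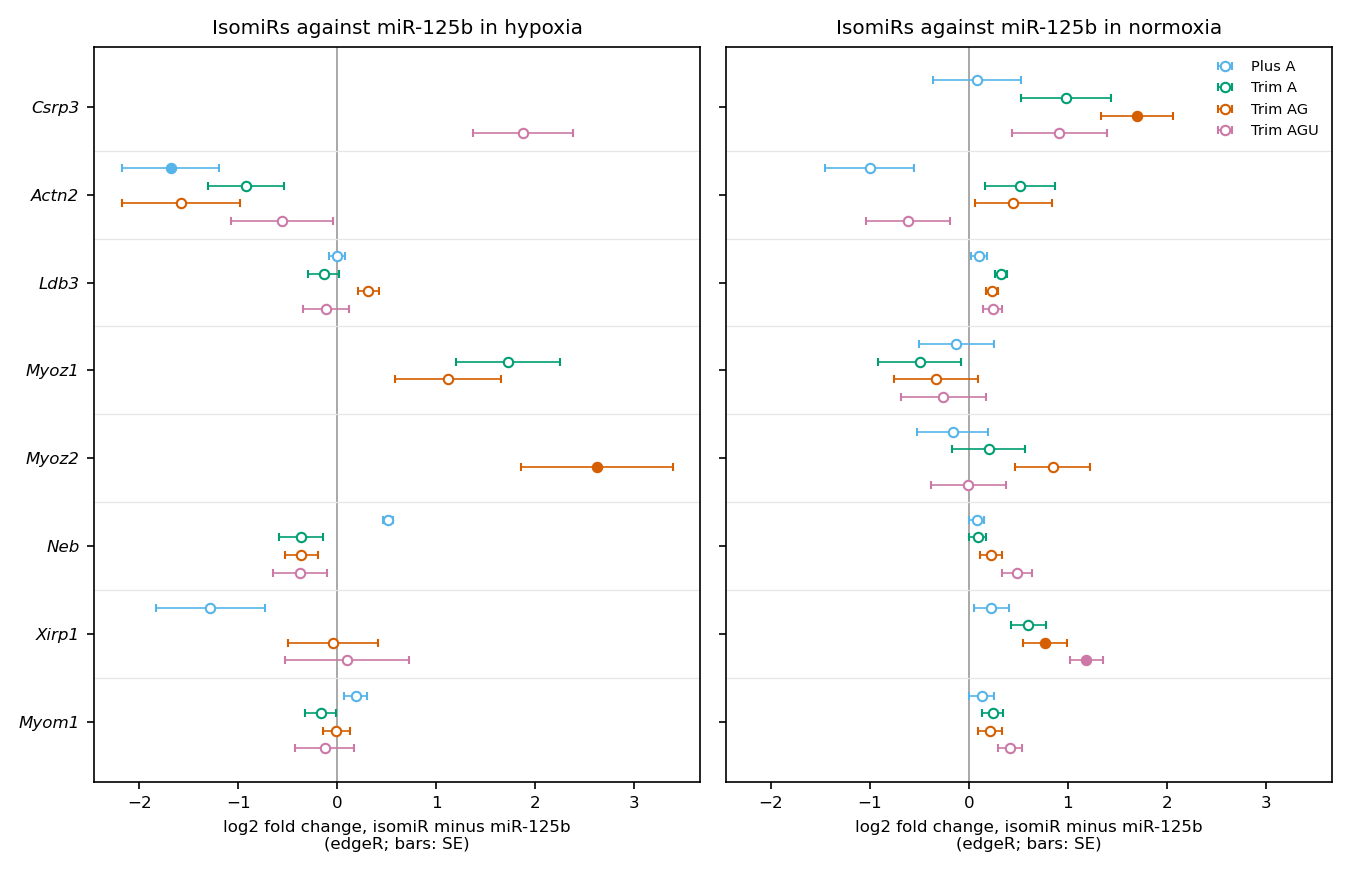
Log2 fold change of each member with each isomiR against miR-125b in hypoxia (left) and normoxia (right), with the SE of the edgeR fit (bars). Filled points met the call, which were *Actn2* with Plus A and *Myoz2* with Trim AG in hypoxia, and *Csrp3* with Trim AG and *Xirp1* under both Trim AG and Trim AGU in normoxia.

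Whether an isomiR acted differently in hypoxia and normoxia was tested as an interaction term between oxygen and the isomiR, relative to miR-125b. edgeR called 0 of the 32 pairs of member and isomiR, 10 had an unadjusted p-value below 0.05 and DESeq2 called 1, *Xirp1* with Trim A (-2.06, adjusted p = 0.0041). Of all genes 11.3% were called in the interaction of Trim AG, 0.966% in that of Trim AGU, 0.605% in that of Trim A and 0.0193% in that of Plus A. The interaction with Trim AG was -1.79 ± 0.69 (SE) for *Csrp3* (edgeR adjusted p = 0.078), -2.04 ± 0.71 for *Actn2* (0.053) and -0.60 ± 0.22 for *Neb* (0.062), so the rise of *Csrp3* with Trim AG in normoxia was not shown to differ from hypoxia. They were -1.81, -1.84 and -0.65 (adjusted p = 0.12, 0.10 and 0.077) without replicate 1 of Normoxia miR-125b, and no interaction of a member was called without it, without replicate 1 of Normoxia Plus A or without both. *Csrp3* was called without replicate 2 of Normoxia miR-125b (-2.24, adjusted p = 0.046), *Actn2* without replicate 3 of Hypoxia Trim AG (-3.05, adjusted p = 0.013), and *Neb* without replicate 1 of Normoxia Trim AG (-0.70, adjusted p = 0.042) or replicate 1 of Hypoxia Trim AG (-0.80, adjusted p = 0.0037). The interactions of *Csrp3* also rest on the Hypoxia miR-125b libraries in which it had been noticed as low. Without replicate 1 of Hypoxia Trim A 4 members were called for Trim A, with -0.79 for *Neb*, -2.73 for *Xirp1*, -0.65 for *Ldb3* and 2.49 for *Myoz1*, and without replicate 1 of Hypoxia Trim AGU *Neb* was called for Trim AGU (-1.14, adjusted p = 0.023). The calls thus turned on single libraries, and Hypoxia Trim A replicate 1, with 51.1 CPM of *Neb* against 25.1 and 29.5 CPM in the others, lay above its group.

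For Normoxia MC only the authors' means were used, so no test was made. In the table comparing normoxic Plus A and MC cells, *Csrp3* had a mean of 44.9 with MC and 14.9 with Plus A, a ratio of 0.331. The ratio was 0.316 for *Actn2*, 0.363 for *Xirp1*, 0.465 for *Neb*, 0.675 for *Ldb3* and 0.821 for *Myom1*, and it was 1.08 for *Myoz2* and 1.29 for *Myoz1*, whose means were 16.9 and 9.97 with MC. The median ratio of 13077 genes was 1.00. By these means 6 of the 8 members were lower with Plus A than with MC in normoxia too, without an error to set them against.

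Other genes of the Z-disc, M-band and I-band scaffold and their chaperones were looked up as a list of 50 names, of which 48 were in the tables. In hypoxia miR-125b against MC gave 17 lower, 3 higher and 25 not called among 45 tested, with a median log2 fold change of -0.40, beside 12.5% lower and 9.43% higher among all genes. The largest falls were those of *Unc45b*, a myosin chaperone (-3.31 ± 0.17, SE), *Actn3*, the fast-muscle alpha-actinin (-2.48 ± 0.23), and *Smyd1*, a muscle methyltransferase (-2.46 ± 0.27). *Ankrd2*, a stress-responsive ankyrin repeat protein (1.62 ± 0.19), *Tmod4*, a tropomodulin that caps thin filaments (1.18 ± 0.22), and *Obsl1*, a relative of obscurin (0.76 ± 0.03), were higher, so the scaffold as a whole did not move in 1 direction. Between hypoxia and normoxia under miR-125b 16 were lower and 2 higher of 43 tested (11.5% and 9.34% of all genes). *Lmod3*, a leiomodin that nucleates actin (-3.68 ± 0.16), *Smyd1* (-2.63 ± 0.32) and *Klhl41* (-2.60 ± 0.13) fell the most, and *Ankrd2* (1.54 ± 0.25) and the ubiquitin ligase gene *Trim63* (0.72 ± 0.12) rose, with adjusted p-values of at most 0.00076. All 5 were called without replicate 1 of Normoxia miR-125b, with -3.48, -2.39, -2.42, 1.31 and 0.70 in the order named.

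Between isomiRs and miR-125b in hypoxia, Trim AG gave 13 higher and 7 lower of 43 scaffold genes (7.85% and 11.5% of all genes). *Sorbs2* (1.62 ± 0.08, SE), *Csrp1* (1.44 ± 0.08) and *Fhl1* (1.16 ± 0.08) rose and *Myom2* (-2.17 ± 0.23), *Smyd1* (-1.68 ± 0.39) and *Klhl40* (-1.43 ± 0.26) fell, with edgeR adjusted p-values of at most 0.0098. *Csrp1*, the LIM protein of non-striated cells, had 1458 ± 78.3 CPM with Trim AG and 546 ± 11.5 CPM with miR-125b (SD, n = 3), while its relative *Csrp3* had 0.225 ± 0.0943 CPM and 0.245 ± 0.145 CPM. Trim AGU gave 4 higher and 1 lower (1.83% and 1.93% of all genes), with *Csrp1* (1.01 ± 0.16), *Fhl1* (0.92 ± 0.11) and *Pdlim1* (0.84 ± 0.17) higher and *Obsl1* (-0.64 ± 0.12) lower. These 4 calls were lost without any 1 library of Hypoxia miR-125b (adjusted p = 0.11 to 0.26) and without replicate 3 of Hypoxia Trim AGU (0.064 to 0.13), and that of *Obsl1* also without replicate 2 (-0.57, below the fold threshold). Plus A gave 1 higher and Trim A none.

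In normoxia Trim AG gave 7 higher and 0 lower of 43 scaffold genes (7.58% and 6.36% of all genes), with *Unc45b* (1.58 ± 0.25, SE), *Csrp1* (0.74 ± 0.05) and the intermediate filament gene *Des* (0.70 ± 0.15) rising (edgeR adjusted p = 0.0010, 1.2e-05 and 0.0063). Trim AGU gave 4 higher and 1 lower (6.22% and 5.16% of all genes). *Unc45b* (1.21 ± 0.31), *Pdlim5* (0.67 ± 0.09) and *Sorbs2* (0.66 ± 0.12) rose and *Tmod4* (-1.09 ± 0.33) fell. Without replicate 2 of Normoxia Trim AGU the calls of *Unc45b* (adjusted p = 0.053), *Tmod4* (0.060) and *Sorbs2* (0.54, below the fold threshold) were lost. Without replicate 1 of Normoxia miR-125b *Unc45b* had 1.92 with Trim AG and 1.54 with Trim AGU, and *Csrp1*, *Des*, *Pdlim5* and *Sorbs2* were still called. *Unc45b* with Trim AGU was also lost without replicate 2 or 3 of Normoxia miR-125b (0.068 and 0.066), and *Tmod4* without each library of Normoxia miR-125b or replicate 3 of Normoxia Trim AGU (0.056 to 0.11).

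Among 20 contractile genes of the thin and thick filaments 15 were lower, 1 higher and 2 not called with miR-125b against MC in hypoxia (12.5% of all genes lower and 9.43% higher). Between hypoxia and normoxia under miR-125b 9 of the 17 tested were higher and 3 lower (9.34% of all genes higher and 11.5% lower). *Tnnt2*, cardiac troponin T, rose by 1.77 ± 0.12 (SE, edgeR adjusted p = 2.9e-06) in that comparison while *Xirp1*, *Myom1* and *Ldb3* fell. *Acta1*, skeletal alpha-actin, had 181, 140 and 161 CPM in Hypoxia Trim AG, within or near the 160 to 173 CPM of Hypoxia MC, whereas *Csrp3*, *Actn2*, *Neb*, *Ldb3*, *Xirp1* and *Myom1* were lower there than in every MC library. Of 12 myogenic genes 9 were tested, of which 6 were lower and 0 higher with miR-125b against MC in hypoxia, and 4 lower and 2 higher in hypoxia against normoxia under miR-125b, beside the same shares of all genes.

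Over the means of the 11 groups, on the log2 CPM scale, *Ldb3* and *Myom1* had a Pearson r of 0.984, *Ldb3* and *Xirp1* of 0.977 and *Xirp1* and *Myom1* of 0.970. *Csrp3* had an r of 0.833 with *Actn2* and 0.780 with *Neb*, against 0.585 with *Ldb3* and 0.555 with *Myom1*. The groups share the cell line and, in pairs, the mimic, and these values are a description. Within the 15 hypoxia libraries with mimics the r of *Ldb3* and *Myom1* was 0.686 and that of *Csrp3* and *Actn2* 0.184. Within the 15 normoxia libraries they were 0.533 and 0.354. *Csrp3* and *Actn2* had few counts in these libraries, and an r over the groups without MC was not computed. The named genes outside the list with the pattern most like a member, among 11793 genes with at least 1 CPM, were *Gnat2*, *Pxk* and *Impdh1* for *Csrp3* (r = 0.967, 0.964 and 0.959) and *Ninl*, *Lrba* and *Sh3pxd2b* for *Neb* (0.971, 0.965 and 0.964). For *Xirp1* they were *Gja5*, *Bcar1* and *Itga7* (0.985, 0.982 and 0.981), for *Myom1* *Shisa2*, *Ctnnb1* and *Synpo2l* (0.989, 0.987 and 0.985) and for *Ldb3* *Kcnh1*, *Gbp3* and *Igf2bp3* (0.979, 0.979 and 0.977). Over the 33 single libraries the r of *Gbp3* was 0.867 and its rank 321, and that of *Pxk* 0.812 and its rank 27, whereas the other 13 genes had ranks of at most 17.

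Since several members moved together between hypoxia and normoxia, promoters of the members were searched for motifs of muscle transcription factors. RefSeq (GRCr8) promoters, from 250 bases before to 50 after the start, were found for 7 of the 8 members. A CArG box, found in 1.64% of 33465 promoters, was present for *Ldb3* and for none of the other 6. An E-box (CANNTG, in 72.1% of all promoters) was present for 6 of the 7 and an MCAT element (CATTCC, in 14.2%) for none of them, on either strand, and no matches of different motifs shared a base. The window of 30 bases shows the CArG box in capitals, 5′ to 3′ on the strand of the gene.
*Ldb3* CArG box (chr16:9924712-9924741, minus strand): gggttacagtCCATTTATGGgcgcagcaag
A match says nothing about binding in these cells.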

How the data were processed

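RNA of H9C2 cells was sequenced by the authors in non-stranded poly-A libraries. Each of 12 deposited tables compares a pair of groups. In 11 of them the authors gave the raw count of each gene per library and its FPKM, and for Plus A and MC in normoxia they gave group means, an expression signal with no library of its own. Their own fold changes and p-values stand in the same tables and were not used. The submitters' processing notes name HISAT2 and StringTie, and versions and the genome build are not given in the sources used here. The titles number the trimmed isomiRs 1, 2 and 3, which were read as Trim A, Trim AG and Trim AGU in the order of the treatment description.

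Libraries were joined on the gene identifier with Python 3.11.15 and pandas 2.3.3, a gene left out of a table was given 0 (it had at most 1 count elsewhere), and conflicts between tables numbered 0. CPM is the count scaled to the library total. For 18 comparisons of a pair of groups and 4 interactions, edgeR 4.0.16 (R 4.3.3) was fitted on the libraries concerned, with TMM, filterByExpr and the quasi-likelihood test, and p-values were adjusted over all genes tested (Benjamini-Hochberg). Genes were called at an adjusted p-value under 0.05 with a change of 1.5-fold or more. The step was tested on simulated data. SE was obtained by dividing the size of the log2 fold change by the root of the F statistic. Alternatives were DESeq2 1.42.0, RLE size factors, no low-count filter, all libraries in 1 fit, a replicate block, other fold thresholds, each library left out and, chosen after seeing the data, both doubted normoxia libraries left out. Replicates differed by more than sampling noise (chi-square per gene 4.75 to 219), so all were kept. Members and lists were chosen with earlier results of these data known. Named scaffold genes are up to 3 called per direction with the largest change and at least 1 CPM in a group. Likeness is Pearson's r of group means of log2 CPM with a prior count of 2. The search for 1 further motif is not reported here.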

Additional observations from a re-analysis of the deposited data

How the results depend on the processing

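Among the pairs of member and mimic, calls against MC in hypoxia numbered 34 and 31 to 34 without each library in turn. Against miR-125b in hypoxia there were 2 calls, 1 without the filter on low counts, 4 without a fold threshold and 0 to 5 without each library. In normoxia there were 3, 7 without a fold threshold and 2 to 4 without each library. Hypoxia against normoxia gave 27, and 26 to 28 without each library. For the interactions 0 became 1 under DESeq2, and 1 when all libraries shared 1 fit (*Actn2* with Trim AG), and 0 to 4 without each library. The cause of these shifts was not tested. *Actn2* with Plus A against miR-125b in hypoxia lost its call without the filter (adjusted p = 0.059) and with all libraries in 1 fit (0.088), had no adjusted p in DESeq2, and *Xirp1* with Trim AG in normoxia in the latter (0.088). No called difference of a member or a named scaffold gene changed its direction under the alternatives run. The mean of *Csrp3* in Hypoxia MC was 6.06 CPM with TMM library sizes. Over 33 single libraries in place of group means the r of the most similar gene was 0.896 for *Csrp3*, 0.966 for *Ldb3*, 0.941 for *Neb*, 0.961 for *Xirp1* and 0.974 for *Myom1*.

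Groups share replicate numbers, but the deviations of same-numbered libraries from their group means correlated at -0.16 to 0.076. The numbers were therefore not used as pairs in the main fits. The labels do not say whether same-numbered libraries were handled together, and these correlations cannot decide it. With the replicate block 34, 1, 3, 26 and 0 calls were made in the 5 families above, the call of *Actn2* with Plus A having an adjusted p of 0.098 and that of *Neb* under Trim AGU of 0.052. Depth limited *Myoz1*, *Myoz2*, *Actn2* and *Csrp3*, which had under 100 counts in every library other than those of *Csrp3* in Hypoxia MC.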

Other observations

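The authors' means of Normoxia MC can be set beside the counts of the 3 Hypoxia MC libraries, although they come from tables normalized separately, so the difference was not tested. On the scale of those means, which for Normoxia Plus A were 1.01 times the counts in the median of 13096 genes, *Csrp3* had 44.9 in Normoxia MC and 184 to 196 counts in Hypoxia MC, and *Actn2* had 22.3 and 56 to 67. *Xirp1* had 577 in Normoxia MC and 216 to 248 in Hypoxia MC, *Ldb3* had 1598 and 965 to 1145, and *Myom1* had 1070 and 620 to 804, while *Neb* had 3897 and 4228 to 4888. *Myoz2* had 16.9 in Normoxia MC and 12 to 26 counts in Hypoxia MC, and *Myoz1* had 9.97 and 5 to 15. In Hypoxia MC, *Csrp3*, *Actn2* and *Neb* thus lay above their Normoxia MC level and *Xirp1*, *Ldb3* and *Myom1* below it. These last genes were lower in hypoxia under the mimics as well.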
